A study of Macaca mulatta with 34 samples.

Results

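Homeostatic astrocyte genes are the transporters, channels, gap junction proteins and enzymes by which resting astrocytes keep neural tissue in balance. The set comprised 10 genes chosen by name (SLC1A2, SLC1A3, GLUL, AQP4, KCNJ10, SLC4A4, GJA1, GJB6, ALDOC and ALDH1L1). Each was the row of a gene table whose Ensembl macaque identifier carries that symbol, and all 10 were found among the 34847 identifiers present in every table. The rule that picks these rows uses names and no measured value, but the genes were chosen with earlier results of these data known. Rhesus macaques had received an injection into the deep cerebellar nuclei (DCN), which send out the signals of the cerebellum, guided by magnetic resonance imaging, and total RNA of that region was sequenced. Study 1 examined the toxicity of AAV.miS1, an adeno-associated virus (AAV) vector encoding an artificial microRNA against ATXN1, in 6 libraries, with 4 libraries from animals given vehicle. Study 2 examined redesigned cargos in 3 libraries each of StufferOnly (filler sequence without an RNAi hairpin by its name), miSCA7Stuffer (an artificial microRNA directed at the SCA7 gene ATXN7, with filler, by its name) and intmiS1 (a reworked miS1 construct), with 3 libraries from animals given Empty_Capsid, capsid without cargo. All animals, controls included, had thus received an injection into the DCN. Each library carried its own animal identifier. The labels state neither dose, time after injection and age nor the promoters of the constructs.

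Astrocytes clear glutamate from synapses through the transporters SLC1A2 and SLC1A3 and convert it to glutamine with glutamine synthetase (GLUL). Potassium released by active neurons enters astrocytes through the inward rectifier KCNJ10 and spreads through gap junctions built of the connexins GJA1 and GJB6, while AQP4 passes water at the endfeet on blood vessels and SLC4A4 carries sodium and bicarbonate. ALDOC is a glycolytic aldolase and ALDH1L1 a folate enzyme widely used as an astrocyte marker. In the cerebellum SLC1A3 is strongly made by Bergmann glia, the radial astrocytes of the cortex, and ALDOC also by bands of Purkinje cells. KCNJ10 is made by oligodendrocytes as well. When astrocytes react to injury, homeostatic genes are commonly reduced and genes such as VIM, SERPINA3 and CHI3L1 are induced.

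Levels are CPM (counts scaled to a common library size) after trimmed mean of M values (TMM) scaling, and a gene passed when its Benjamini-Hochberg adjusted p from edgeR's quasi-likelihood test over all tested genes was under 0.05. Study 1 libraries held 2049685 to 4810852 counts in genes, apart from Vehicle replicate 2 with 87741. The featureCounts libraries of Study 2 held 20978241 to 39792653, and intmiS1 replicates 1 and 2, counted with STAR, held 5169866 and 4858179. In Study 1, 5 libraries had 19.8% to 31.4% unmapped reads (AAV.miS1 replicates 5 and 6, Vehicle replicates 2 to 4) and the other 5 had 9.23% to 12%. Replicate 1 of miSCA7Stuffer held 1.64 RPM of vector reads (reads scaled to the gene counts), against 349 and 257 in the other libraries of its group. In Study 1, AAV.miS1 replicates 1 to 6 held 36, 254, 48, 84, 7 and 10 vector counts (not scaled). Vehicle replicates 1 to 4 held 2, 0, 3 and 1.

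The genes were read in nearly every library: 219 of 220 combinations of gene and library had at least 1 count. The exception was GJB6 in AAV.miS1 replicate 1, where 0 counts allow up to 0.732 CPM (3 counts, counting error only). The bulk RNA of a tissue block was measured, so fewer astrocytes and less RNA per astrocyte cannot be told apart in any of the differences given here.

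**Figure D1:**
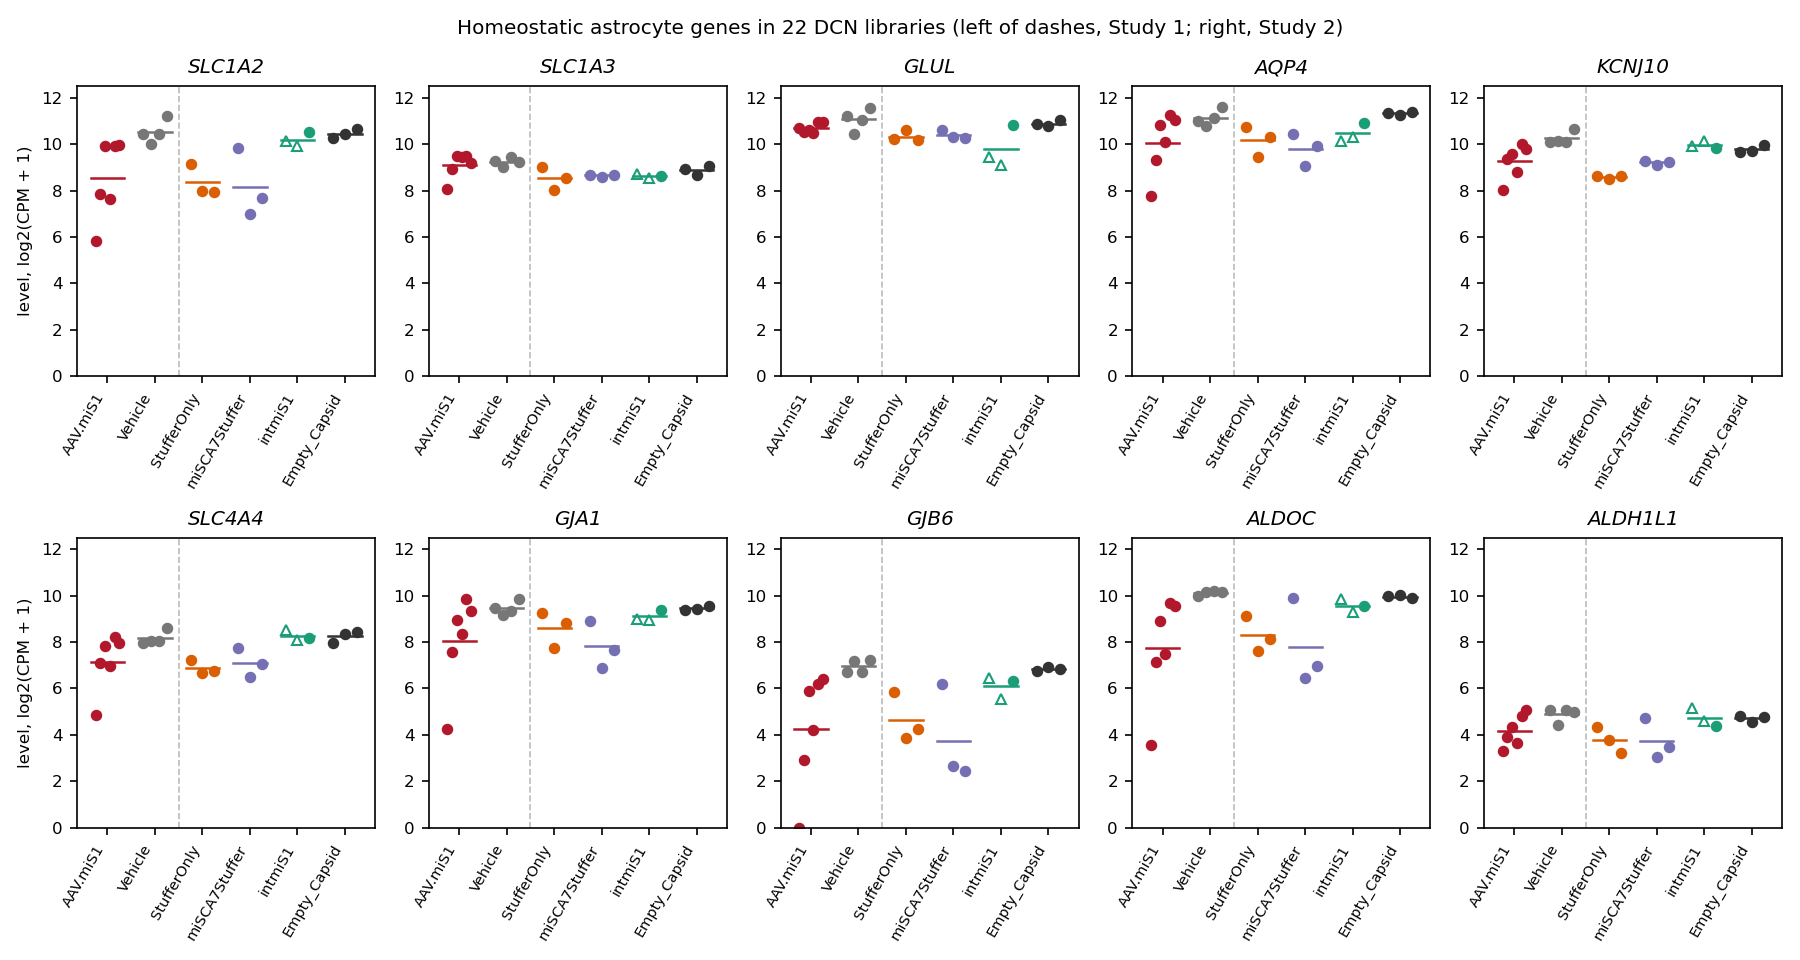
Level of each gene as log2(CPM + 1) in every DCN library, by group; each point is 1 library, short lines are group means, and open triangles mark the intmiS1 libraries counted with STAR in the unstranded column. AAV.miS1 libraries spread widely for GJB6, ALDOC and SLC1A2, StufferOnly and miSCA7Stuffer libraries lie below Empty_Capsid for most genes, and SLC1A3 differs least in AAV.miS1, StufferOnly and miSCA7Stuffer against their controls.

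AAV.miS1 against Vehicle asked how the tissue given the toxic vector differed. All 10 genes had fitted means below Vehicle, with a median log2 fold change of -0.72 against 0.02 over all 13383 genes tested, but none passed (adjusted p 0.128 to 0.906). Among all genes tested, 0.284% passed as lower and 7.22% as higher. For 4 of the 10 genes, SLC1A2, KCNJ10, GJB6 and ALDOC, every AAV.miS1 library lay below every Vehicle library, which held for 2.88% of all genes tested. AAV.miS1 replicate 1 had the lowest value of its group for 9 of the 10 genes, and replicate 5 or 6 had the highest for all 10. Replicates 5 and 6 also held the fewest vector counts of the group, 7 and 10, whereas replicate 1 held 36. The part of the vector reads in these differences was not tested.

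Among the genes of glutamate handling, SLC1A2, the main glutamate transporter of the forebrain, had 56.6, 597 and 990 CPM (lowest, median and highest of 6) in AAV.miS1 libraries, against 1369, 1039, 1369 and 2381 CPM in Vehicle libraries. The groups did not overlap, with AAV.miS1 replicates 1, 2 and 4 at 233 CPM or less and replicates 3, 5 and 6 at 961 CPM or more. The log2 fold change of SLC1A2 was -1.45 (SE 0.67, adjusted p = 0.191). SLC1A3 had 268, 640 and 726 CPM in AAV.miS1 libraries, against 609, 509, 687 and 594 CPM in Vehicle libraries. Of the 6 AAV.miS1 libraries, 4 lay within or above the Vehicle range, and SLC1A3 had the smallest log2 fold change of the set, -0.06 (SE 0.26, adjusted p = 0.906). GLUL had 1429, 1614 and 2004 CPM in AAV.miS1 libraries, against 2386, 1381, 2125 and 2960 CPM in Vehicle libraries. The overlap came from Vehicle replicate 2, whose GLUL value rests on 133 counts. The log2 fold change of GLUL was -0.40 (SE 0.23, adjusted p = 0.267) with that library and -0.57 (SE 0.20, adjusted p = 0.126) without it.

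Of the genes that buffer potassium, water and bicarbonate, KCNJ10 had 259, 707 and 1034 CPM in AAV.miS1 libraries, against 1088, 1122, 1096 and 1601 CPM in Vehicle libraries. Even AAV.miS1 replicate 5, the highest of its group, lay under the lowest Vehicle library. KCNJ10 had the smallest adjusted p of the set, 0.128, with a log2 fold change of -0.87 (SE 0.33). AQP4 had 218, 1431 and 2468 CPM in AAV.miS1 libraries, against 2053, 1776, 2196 and 3085 CPM in Vehicle libraries, and SLC4A4 had 27.8, 180 and 296 CPM against 248, 260, 261 and 391 CPM. For AQP4, AAV.miS1 replicates 3, 5 and 6 reached the Vehicle range, and for SLC4A4 replicates 5 and 6. Log2 fold changes were -0.72 (SE 0.53, adjusted p = 0.382) for AQP4 and -0.73 (SE 0.48, adjusted p = 0.338) for SLC4A4.

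The connexins differed in how far they were reduced in single libraries. GJB6 had 0, 6.5, 58.4, 17.8, 72.2 and 83.0 CPM in AAV.miS1 replicates 1 to 6, against 104, 145, 102 and 151 CPM in Vehicle libraries. The groups did not overlap, and replicates 1, 2 and 4 held at most 17.8 CPM. Its log2 fold change was -1.66 (SE 0.91, adjusted p = 0.259), the lowest of the set. GJA1, the main connexin of astrocytes, had 18.3, 408 and 932 CPM in AAV.miS1 libraries, against 705, 571, 645 and 935 CPM in Vehicle libraries, with replicates 5 and 6 within the Vehicle range. Its log2 fold change was -0.72 (SE 0.69, adjusted p = 0.503).

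Of the enzymes, ALDOC had 11.0, 141, 478, 178, 821 and 742 CPM in AAV.miS1 replicates 1 to 6, against 1000.3, 1122, 1177 and 1138 CPM in Vehicle libraries. The Vehicle libraries lay close together and all AAV.miS1 libraries below them, replicate 1 by far the lowest. The log2 fold change of ALDOC was -1.49 (SE 0.77, adjusted p = 0.234). ALDH1L1 had 9.02, 16.6 and 32.5 CPM in AAV.miS1 libraries, against 32.5, 20.8, 32.9 and 30.5 CPM in Vehicle libraries, where the value of replicate 2 rests on 2 counts. AAV.miS1 replicates 5 and 6 lay within the Vehicle range, and the log2 fold change was -0.72 (SE 0.35, adjusted p = 0.213).

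Permuting the group labels over the 10 libraries, in two-sided exact tests on CPM for each of the 10 genes, gave unadjusted p-values of 0.00952 for GJB6 and for ALDOC, 0.0143 for KCNJ10 and 0.019 for SLC1A2, with the smallest possible at 0.00476. The other 6 genes had exact p-values of 0.0857 to 0.848. On the log2 scale the same exact test gave 0.0381 for GJB6 and for ALDOC, 0.0238 for KCNJ10 and 0.0333 for SLC1A2. Among the libraries with over 15% unmapped reads (AAV.miS1 replicates 5 and 6 against Vehicle replicates 2 to 4), ALDOC had 742 and 821 CPM with AAV.miS1, against 1122 to 1177 CPM with Vehicle, and GJB6 had 72.2 and 83.0 CPM against 102 to 151 CPM. With SLC1A2 and KCNJ10, 4 of the 10 genes lay lower there without overlap, and the other 6 overlapped. The share over all genes was not computed for these libraries. None of the 10 genes passed under any alternative setting tried for AAV.miS1 against Vehicle. The median log2 fold change of the 10 genes in this subset was -0.16, SLC1A3 and GJA1 turned positive (0.11 and 0.12), and none passed (adjusted p 0.176 to 1). Among the libraries with under 15% unmapped reads only 1 came from a Vehicle animal.

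StufferOnly against Empty_Capsid set a vector with filler sequence against a capsid without cargo. All 10 genes were again below the control mean, with a median log2 fold change of -1.14 against 0.02 over all 20882 genes tested. KCNJ10 and SLC4A4 fell, so that 2 of the 10 passed, and none rose. In this comparison 3.81% of all genes tested passed as lower and 11.6% as higher (795 and 2424 genes, and 1325 and 1952 with upper quartile scaling). All StufferOnly libraries lay below all Empty_Capsid libraries for 9 of the 10 genes, SLC1A3 being the exception, against 22.3% of all genes tested.

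KCNJ10 had 392, 361 and 387 CPM in StufferOnly libraries, against 809, 837 and 986 CPM in Empty_Capsid libraries. The StufferOnly libraries lay within a narrow band at less than the lowest control. The fall was -1.21 on the log2 scale (380 ± 16.9 CPM in StufferOnly and 877 ± 95.2 CPM in Empty_Capsid, SD, n = 3 each; SE 0.13, adjusted p = 0.00947). SLC4A4 had 148, 100.3 and 105 CPM in StufferOnly libraries, against 249, 325 and 342 CPM in Empty_Capsid libraries, without overlap. Its fall was -1.37 on the log2 scale (SE 0.31, adjusted p = 0.0246). Leaving out single libraries ended both calls. KCNJ10 no longer passed without Empty_Capsid replicate 1, Empty_Capsid replicate 2 or StufferOnly replicate 2 (adjusted p 0.0805, 0.0844 and 0.0561), and SLC4A4 without any 1 Empty_Capsid library or StufferOnly replicate 2 or 3 (adjusted p 0.0814 to 0.0953), while both log2 fold changes stayed at or below -1.12.

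In glutamate handling, SLC1A2 had 553, 249 and 246 CPM in StufferOnly libraries, against 1230, 1362 and 1596 CPM in Empty_Capsid libraries, the lowest log2 fold change of the set at -2.0 (SE 0.69, adjusted p = 0.0831). GLUL had 1170, 1553 and 1134 CPM in StufferOnly libraries, against 1836, 1725 and 2067 CPM in Empty_Capsid libraries (log2 fold change -0.55, SE 0.18, adjusted p = 0.0708). Neither gene's groups overlapped, and neither passed. SLC1A3 had 514, 260 and 369 CPM in StufferOnly libraries, against 477, 399 and 533 CPM in Empty_Capsid libraries, with StufferOnly replicate 1 inside the control range (log2 fold change -0.30, SE 0.23, adjusted p = 0.393).

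AQP4 had 1684, 686 and 1258 CPM in StufferOnly libraries, against 2605, 2404 and 2622 CPM in Empty_Capsid libraries (log2 fold change -1.07, SE 0.39, adjusted p = 0.094). GJB6 had 55.7, 13.6 and 18.1 CPM in StufferOnly libraries, against 107, 120 and 113 CPM in Empty_Capsid libraries (-1.96, SE 1.03, adjusted p = 0.222). ALDOC had 550, 192 and 280.2 CPM in StufferOnly libraries, against 994, 1025 and 938 CPM in Empty_Capsid libraries (-1.53, SE 0.83, adjusted p = 0.236). For all 3 genes StufferOnly replicate 1 was the highest of its group and replicate 2 the lowest, and the control libraries lay far closer together than the vector libraries. GJA1 had 598, 215 and 445 CPM in StufferOnly libraries, against 654, 684 and 746 CPM in Empty_Capsid libraries (-0.73, SE 0.51, adjusted p = 0.352). ALDH1L1 had 19.3, 12.9 and 8.31 CPM in StufferOnly libraries, against 27.1, 22.5 and 26.4 CPM in Empty_Capsid libraries (-0.91, SE 0.46, adjusted p = 0.209). Both were below every control library without passing.

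**Figure D2:**
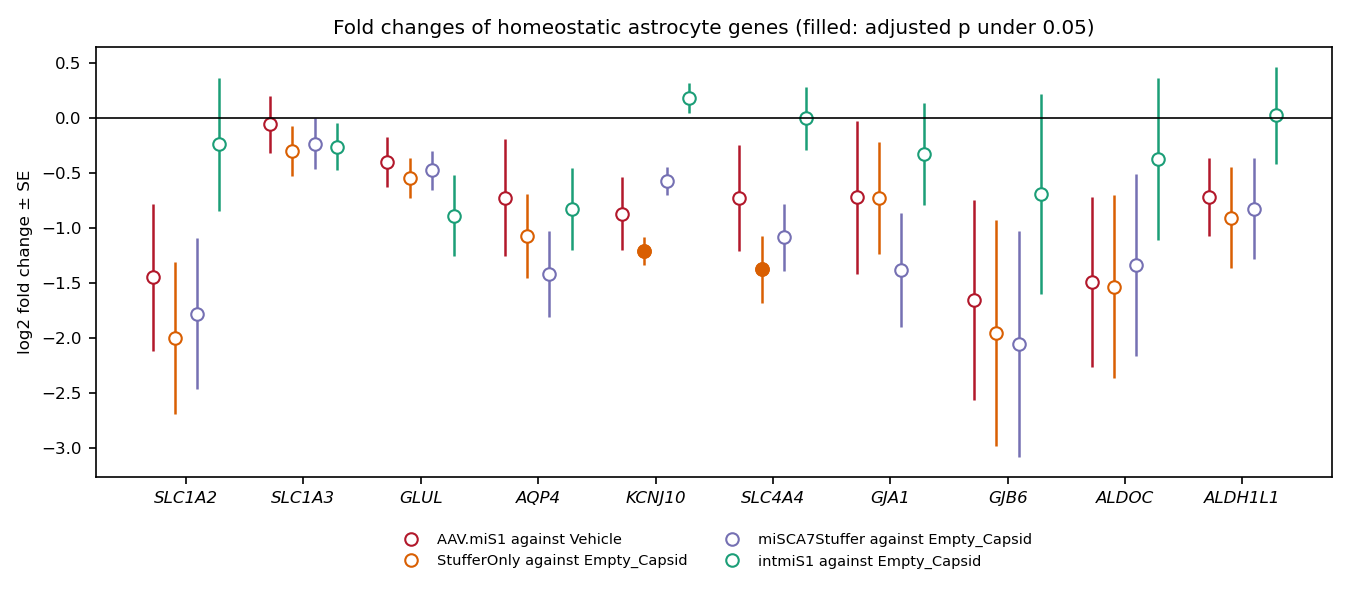
Log2 fold change of each gene with its SE in AAV.miS1 against Vehicle and in the 3 Study 2 vector groups against Empty_Capsid; filled points passed at adjusted p under 0.05. Only KCNJ10 and SLC4A4 with StufferOnly are filled, at -1.21 and -1.37, and the intmiS1 points lie nearest to 0 for most genes.

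miSCA7Stuffer against Empty_Capsid, which shares its controls with the StufferOnly comparison, also had all 10 genes below the control mean, with a median log2 fold change of -1.21 against 0.07 over all genes tested. None passed with edgeR (adjusted p 0.134 to 0.546), though 6 had an unadjusted p under 0.05, as did 1785 of all genes on the lower side, where 0% of all genes tested passed, against 0.00479% (1 gene) on the higher side. With DESeq2, which called 732 of all genes lower and 1427 higher, 4 of the 10 fell (AQP4, SLC1A2, KCNJ10 and SLC4A4). For 7 of the 10 genes the groups did not overlap, against 12.6% of all genes tested. The spread came mostly from miSCA7Stuffer replicate 1, the library with few vector reads.

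GJB6 had 72.0, 5.25 and 4.37 CPM in miSCA7Stuffer libraries, against 107, 120 and 113 CPM in Empty_Capsid libraries. ALDOC had 957, 87.2 and 125 CPM in miSCA7Stuffer libraries, against 994, 1025 and 938 CPM in Empty_Capsid libraries. SLC1A2 had 894, 126 and 201 CPM in miSCA7Stuffer libraries, against 1230, 1362 and 1596 CPM in Empty_Capsid libraries. In each case replicate 1 lay closest to the controls, within their range for ALDOC, and replicates 2 and 3 far below it. KCNJ10 was unlike them, with 617, 545 and 604 CPM in all 3 miSCA7Stuffer libraries, against 809, 837 and 986 CPM in Empty_Capsid libraries (log2 fold change -0.58, SE 0.13, adjusted p = 0.134). SLC1A3 differed least again, with 406, 387 and 403 CPM in miSCA7Stuffer libraries, against 477, 399 and 533 CPM in Empty_Capsid libraries (-0.24, SE 0.23, adjusted p = 0.546). In the other 5 genes, too, replicate 1 had the highest value of its group. AQP4 had 1361, 533 and 964 CPM in miSCA7Stuffer libraries, against 2605, 2404 and 2622 CPM in Empty_Capsid libraries (-1.42, SE 0.39, adjusted p = 0.135). GJA1 had 482, 117 and 202 CPM in miSCA7Stuffer libraries, against 654, 684 and 746 CPM in Empty_Capsid libraries (-1.38, SE 0.52, adjusted p = 0.173). Both genes, like SLC4A4 and GLUL, had every miSCA7Stuffer library below the controls. SLC4A4 had 210.2, 90.1 and 132 CPM in miSCA7Stuffer libraries, against 249, 325 and 342 CPM in Empty_Capsid libraries (-1.08, SE 0.30, adjusted p = 0.135). GLUL had 1561, 1263 and 1225 CPM in miSCA7Stuffer libraries, against 1836, 1725 and 2067 CPM in Empty_Capsid libraries (-0.47, SE 0.18, adjusted p = 0.174). ALDH1L1 had 25.2, 7.23 and 10.3 CPM in miSCA7Stuffer libraries, against 27.1, 22.5 and 26.4 CPM in Empty_Capsid libraries, with replicate 1 inside the control range (-0.83, SE 0.46, adjusted p = 0.302).

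Without miSCA7Stuffer replicate 1, 9 of the 10 genes fell, all but SLC1A3. Of all genes tested 6983 then passed, counted in both directions together, so a large number of genes beside the set were called as well. The share passing as lower is not given here, so the count of 9 does not set the 10 genes apart. Log2 fold changes were then -4.59 for GJB6, -3.25 for ALDOC, -3.13 for SLC1A2 and -2.16 for GJA1 (adjusted p 0.00109, 0.00102, 0.001 and 0.00505). The part of the few vector reads of replicate 1 in these values was not tested.

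miSCA7Stuffer against StufferOnly set the hairpin construct with filler against filler alone. No gene of the set passed (adjusted p 0.237 to 0.986), 7 lay above 0 and 3 below, and 0% of all genes tested passed in either direction with edgeR (1002 higher and 1115 lower at an unadjusted p under 0.05, and 414 in all with DESeq2). KCNJ10 was the gene that separated, at 589 ± 38.6 CPM in miSCA7Stuffer and 380 ± 16.9 CPM in StufferOnly (SD, n = 3 each), without overlap, as were 6.29% of all genes tested on the higher side. Its log2 fold change was 0.63 (SE 0.13, adjusted p = 0.237). KCNJ10 passed with DESeq2 (adjusted p = 0.000632) and without miSCA7Stuffer replicate 1 (adjusted p = 0.0472). For the other 9 genes differences of -0.65 (GJA1) to 0.29 (SLC4A4) came with SEs of 0.18 to 0.99.

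intmiS1 against Empty_Capsid concerned the redesigned miS1 construct. No gene of the set passed (adjusted p 0.576 to 1), and 0% of all 21501 genes tested passed (969 lower and 862 higher at an unadjusted p under 0.05, and 47 in all with DESeq2). The median log2 fold change was -0.29 against 0.01 over all genes tested. AQP4, GJB6 and ALDOC lay lower without overlap, against 10.7% of all genes tested. AQP4 had 1133, 1270 and 1923 CPM in intmiS1 libraries, against 2619, 2416 and 2635 CPM in Empty_Capsid libraries (log2 fold change -0.83, SE 0.37, adjusted p = 0.576). The endfoot water channel thus had every intmiS1 library below the controls, and the library counted with featureCounts, replicate 3, was nearest to them. GJB6 had 86.6, 46.4 and 78.0 CPM in intmiS1 libraries, against 108, 120 and 113 CPM in Empty_Capsid libraries (-0.69, SE 0.91, adjusted p = 0.847). KCNJ10 had 965, 1125 and 910 CPM in intmiS1 libraries, against 813, 841 and 991 CPM in Empty_Capsid libraries (0.18, SE 0.13, adjusted p = 0.686). ALDOC had 919.7, 630.3 and 751 CPM in intmiS1 libraries, against 999, 1030.3 and 943 CPM in Empty_Capsid libraries (-0.37, SE 0.74, adjusted p = 0.914). SLC1A2 had 1132, 953 and 1478 CPM in intmiS1 libraries, against 1236, 1369 and 1604 CPM in Empty_Capsid libraries (-0.24, SE 0.61, adjusted p = 0.937). The glutamate transporter thus had replicate 3 inside the control range and replicates 1 and 2 under it, and GJA1, SLC1A3 and ALDH1L1 overlapped too. GJA1 averaged 556 ± 102 CPM in intmiS1 and 698 ± 46.7 CPM in Empty_Capsid, SLC1A3 394 ± 23.7 and 472 ± 67.5 CPM, and ALDH1L1 26.0 ± 8.08 and 25.4 ± 2.50 CPM (SD, n = 3 each). SLC4A4 averaged 306 ± 53.0 CPM in intmiS1 and 307 ± 49.6 CPM in Empty_Capsid (SD, n = 3 each). These tests do not show that the groups are alike, since the SEs of the other genes reached 0.91.

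The value of GLUL in intmiS1 depends on the column of the STAR tables. In the unstranded column GLUL had 705 and 544 CPM in intmiS1 replicates 1 and 2, while replicate 3, counted with featureCounts, had 1808 CPM, against 1846, 1734 and 2077 CPM in Empty_Capsid libraries. The STAR libraries were thus far below all others, and the log2 fold change was -0.89 (SE 0.37, adjusted p = 0.576), or -1.60 (adjusted p = 0.000677) without replicate 3. In the reverse strand column, which holds reads of the gene's own strand in these directional libraries, GLUL had 2370 and 2187 CPM in intmiS1 replicates 1 and 2 and 1829 CPM in replicate 3, and the log2 fold change became 0.16 (SE 0.19, adjusted p = 0.798). Over the 12 STAR libraries of both studies, the reverse column held 3.2 to 5.78 times the unstranded count for GLUL. For the other 9 genes that ratio was 0.956 to 1 where the unstranded column held at least 10 counts, which left out 1 library each for GJB6 and ALDH1L1. Why GLUL loses reads in the unstranded column was not tested. Study 1 values were read from the reverse column and are not touched.

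**Figure D3:**
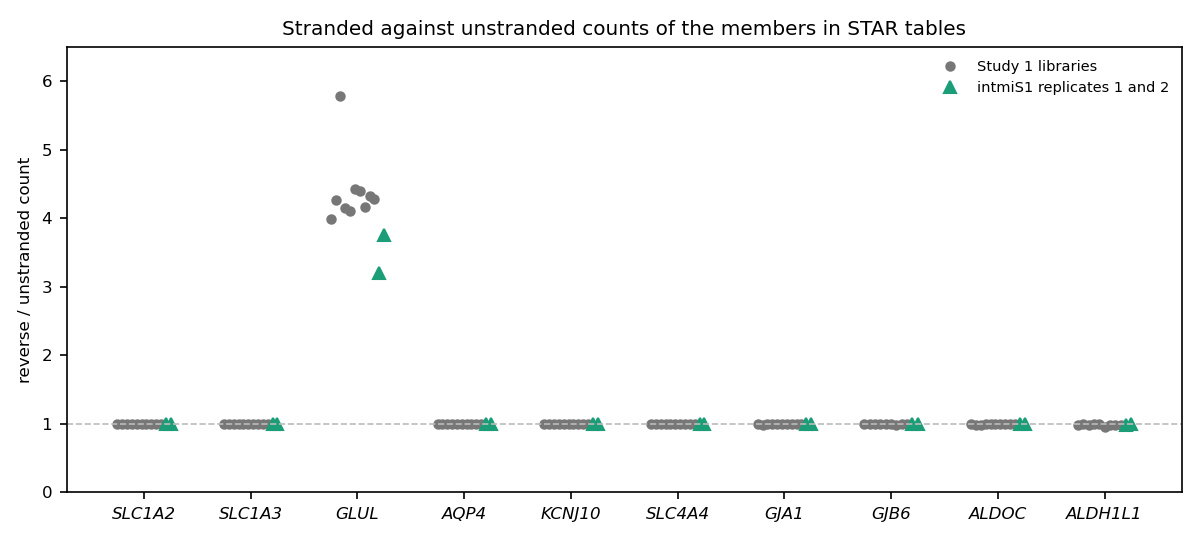
Reverse strand count divided by unstranded count of each gene in the 10 Study 1 libraries and intmiS1 replicates 1 and 2, for values with at least 10 unstranded counts. GLUL lies between 3.2 and 5.78 and the other 9 genes at or just under 1.

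intmiS1 against StufferOnly showed 9 of the 10 genes higher in mean with intmiS1, with a median log2 fold change of 1.05 against -0.06 over all genes tested. KCNJ10 and SLC4A4 rose relative to StufferOnly and none fell, where 3.4% of all genes tested passed as higher and 8.46% as lower (732 and 1820 genes, and 1606 and 1225 with upper quartile scaling). KCNJ10 averaged 1000.0 ± 112 CPM in intmiS1 and 382 ± 17.2 CPM in StufferOnly (SD, n = 3 each; log2 fold change 1.39, SE 0.14, adjusted p = 0.00346). SLC4A4 averaged 306 ± 53.0 CPM in intmiS1 and 119 ± 26.3 CPM in StufferOnly (1.37, SE 0.29, adjusted p = 0.0175). The potassium channel and the bicarbonate transporter were also the genes called in StufferOnly against Empty_Capsid, and these comparisons share the StufferOnly libraries. SLC1A2 averaged 1188 ± 267 CPM in intmiS1 and 352 ± 178 CPM in StufferOnly, without overlap (1.76, SE 0.62, adjusted p = 0.0893), and passed with DESeq2 (1.80, adjusted p = 0.019). ALDOC and ALDH1L1 also separated without overlap but did not pass, which makes 5 of 10 genes against 15.5% of all genes tested. Without replicate 1 or 2 of intmiS1, or without replicate 2 or 3 of StufferOnly, SLC4A4 no longer passed (adjusted p 0.0537 to 0.0757). With the featureCounts library of intmiS1 alone neither gene passed (adjusted p 0.149 for KCNJ10 and 0.256 for SLC4A4). GLUL had a log2 fold change of -0.34 here, of -1.05 (adjusted p = 0.00673) without intmiS1 replicate 3, and of 0.70 (adjusted p = 0.0378) with the reverse column.

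Effects relative to each study's own controls were compared in a fit of all 22 libraries. The AAV.miS1 effect minus the StufferOnly effect was 0.04 to 0.68 on the log2 scale for the 10 genes, with SEs of 0.37 to 1.41, and none passed (adjusted p = 1 for each). The AAV.miS1 effect minus the intmiS1 effect was -1.26 (SLC1A2) to 0.43 (GLUL), and none passed. The value of GLUL sets the reverse column of Study 1 against the unstranded column of intmiS1 replicates 1 and 2, and with the reverse column in both it was -0.59 (SE 0.31, adjusted p = 0.333). KCNJ10 had the smallest p there, with a difference of -1.11 (SE 0.43, adjusted p = 0.207). No gene of the 16537 tested passed in either contrast with edgeR, and 17 and 389 did with DESeq2. Study and counting program differ between these libraries and cannot be told apart from the vector in such contrasts.

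The order of the 10 log2 fold changes was similar in AAV.miS1 against Vehicle and StufferOnly against Empty_Capsid, which share no library (Pearson r = 0.93, Spearman rho = 0.94, across the 10 genes of the set, a description without a test). GJB6, SLC1A2 and ALDOC were lowest in both, and SLC1A3 and GLUL were nearest to 0 in both. For AAV.miS1 against Vehicle and miSCA7Stuffer against Empty_Capsid the values were 0.84 and 0.72. Genes measured in the same libraries share depth and tissue composition.

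**Figure D4:**
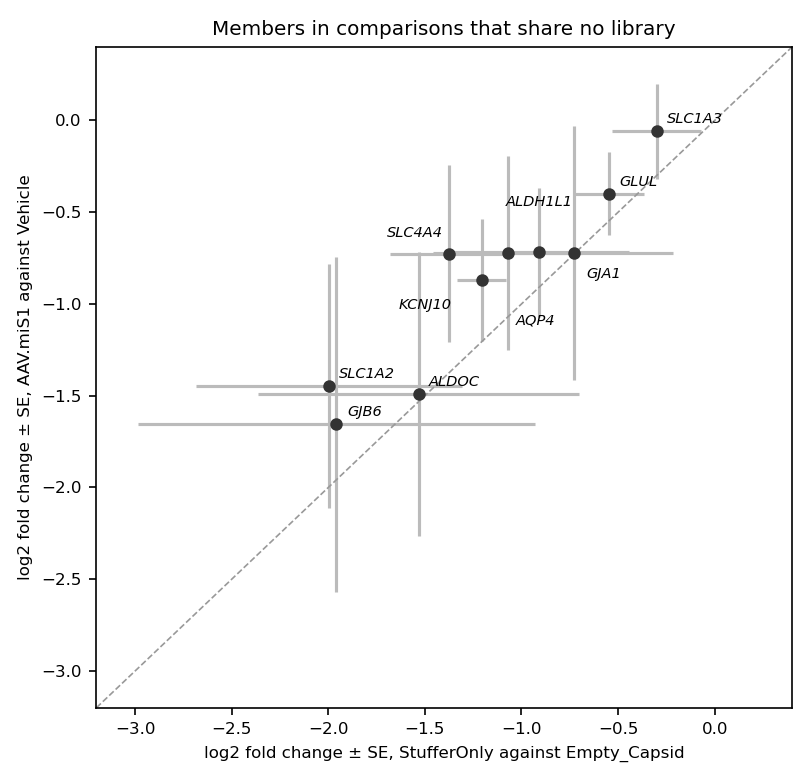
Log2 fold change with SE of each gene in AAV.miS1 against Vehicle (y axis) and in StufferOnly against Empty_Capsid (x axis); the dashed line marks equal values. GJB6, SLC1A2 and ALDOC lie at the low end of both axes, and SLC1A3 and GLUL at the high end.

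The 10 genes varied together across libraries. Of the 45 pairs, all had a positive Pearson correlation of log2 CPM, with a median of 0.89 over the 10 Study 1 libraries and 0.80 over the 9 featureCounts libraries of StufferOnly, miSCA7Stuffer and Empty_Capsid. The lowest pair reached 0.21 in Study 1 and 0.22 in Study 2. Pairs of genes outside the set were not correlated for comparison, so these values do not set the 10 genes apart. Many genes outside the set followed its mean more closely than some members did, with GLUL at position 2270 of 12490 genes ranked. When each gene was expressed as a percentage of the mean of its study's controls, the median over the 10 genes was 9.59%, 37%, 67.5%, 41.5%, 91.2% and 88.6% in AAV.miS1 replicates 1 to 6, against 82.4% to 131% in Vehicle libraries. AAV.miS1 replicate 1 stood lowest of all 22 libraries. The median was 59.1%, 31.9% and 39.4% with StufferOnly, 69.9%, 24.7% and 39.2% with miSCA7Stuffer and 84.6%, 68.8% and 88.2% with intmiS1, against 96.4% to 109% in Empty_Capsid libraries.

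Summed markers of some other cell types moved with these medians. The summed CPM of 12 neuron markers was 3.23%, 27.4%, 61.3%, 24.4%, 123% and 95.8% of the control mean in AAV.miS1 replicates 1 to 6, against 65.6% to 125% in Vehicle libraries. It was 38.5% to 77.7% in StufferOnly, 14.4% to 91.4% in miSCA7Stuffer and 67.8% to 104% in intmiS1 libraries, against 84% to 113% in Empty_Capsid libraries. The libraries lowest in astrocyte genes were thus low in the sum of these 12 neuron markers as well. The sum of 12 microglia and macrophage markers was 123% to 1010% in AAV.miS1, against 73.3% to 143% in Vehicle libraries, and 403% to 467% in StufferOnly, 79.5% to 320% in miSCA7Stuffer and 83.5% to 122% in intmiS1, against 90.2% to 109% in Empty_Capsid libraries. Of these markers 10 of 12 rose with AAV.miS1 and 10 of 12 with StufferOnly, none with miSCA7Stuffer or intmiS1. The sum of 11 oligodendrocyte markers was 40% to 91.5% in AAV.miS1, against 85.1% to 124% in Vehicle libraries, and 45.3% to 53.3% in StufferOnly, against 76.5% to 114% in Empty_Capsid libraries, where 7 of 11 fell. No marker of these 3 lists was at 0 in every library of a group. Of 8 T cell markers, of which 6 were tested in Study 1, 4 rose with AAV.miS1 and 7 with StufferOnly, and LCK was at 0 in every Vehicle library. Of 8 fibroblast and meningeal markers 4 rose in each of these comparisons, and of 8 endothelial markers 0 with AAV.miS1 and 2 with StufferOnly. Of 7 oligodendrocyte precursor markers 0 passed with AAV.miS1 and 2 fell with StufferOnly, and of 10 markers of DCN projection neurons 0 passed with AAV.miS1, 8 being tested, and 1 fell with StufferOnly. The sum of these 10 markers was 47.1% to 118% in AAV.miS1, against 84.4% to 113% in Vehicle libraries. It was 94.9% to 112% in StufferOnly and 79.8% to 99.6% in miSCA7Stuffer, against 82.9% to 111% in Empty_Capsid libraries. Their median log2 fold changes were nevertheless -0.98 with AAV.miS1, -0.87 with StufferOnly and -0.94 with miSCA7Stuffer. The part of these shifts in the lower astrocyte genes was not tested.

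**Figure D5:**
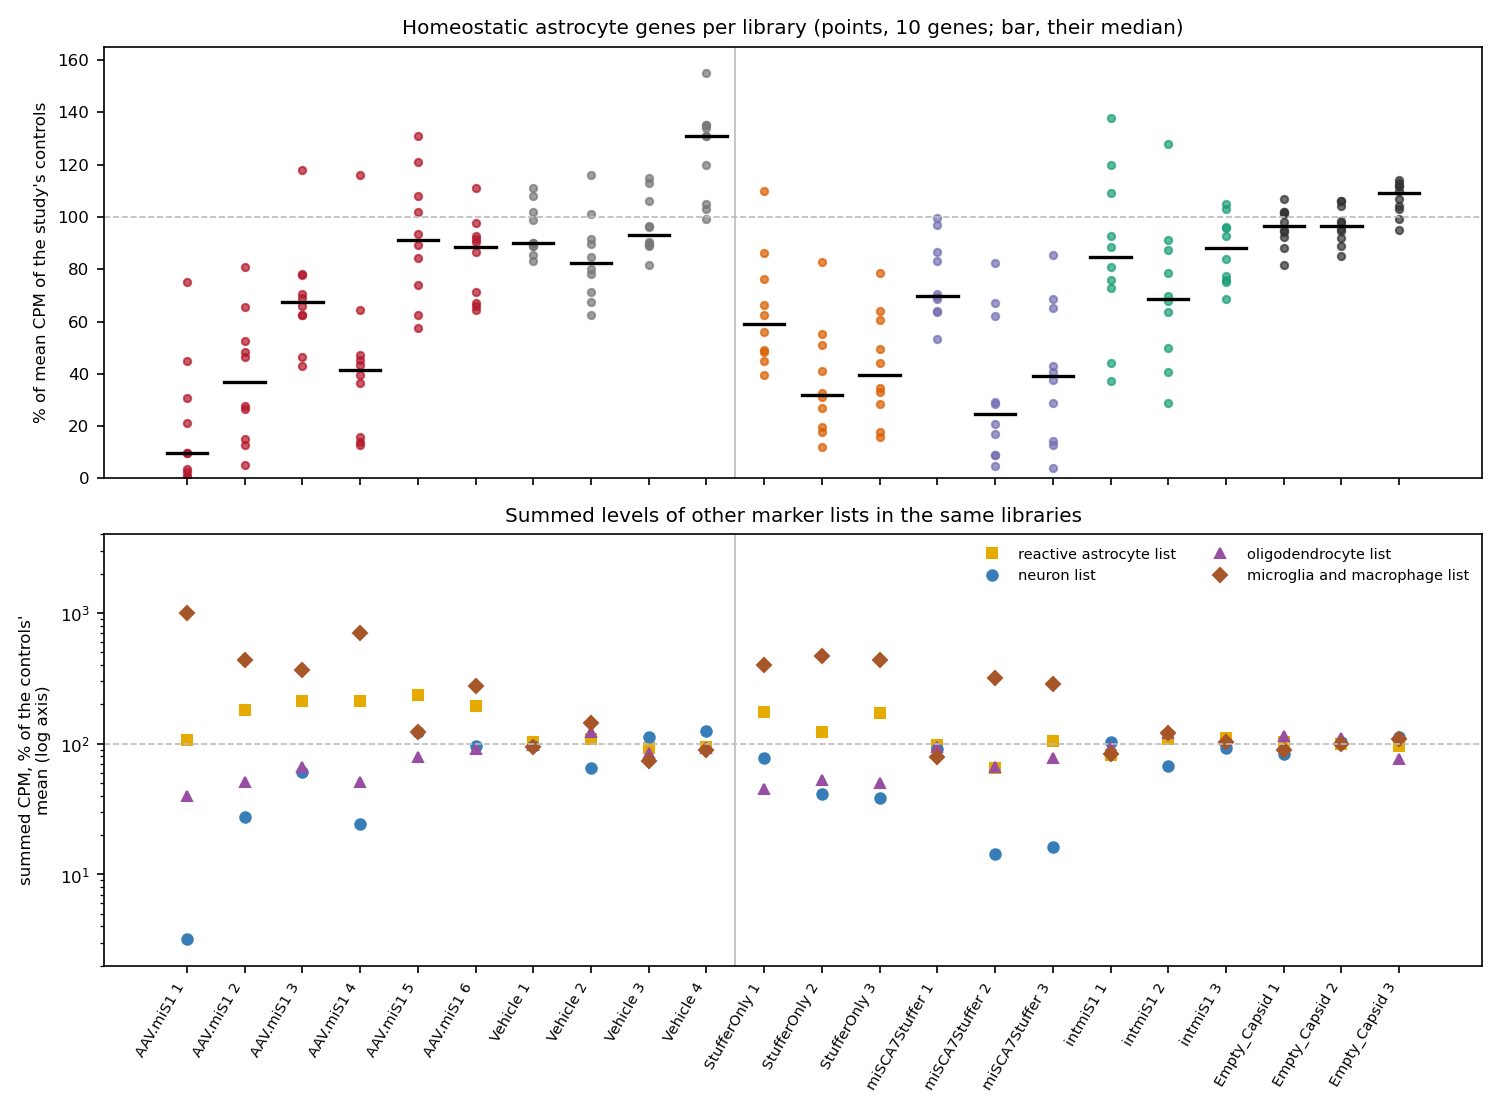
Upper panel, each of the 10 genes in each library as a percentage of the mean CPM of its study's controls (Vehicle or Empty_Capsid), with the median as a bar; lower panel, summed CPM of 4 marker lists in the same libraries, as a percentage of the controls' mean on a log axis. AAV.miS1 replicate 1 has a median of 9.59% and a neuron sum of 3.23%, and replicates 5 and 6 have medians of 91.2% and 88.6%.

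Genes that work beside the set showed a similar direction. Of 14 transport partners (amino acid, GABA, lactate, glucose and ion carriers of astrocytes and their enzymes), all 14 had means below Vehicle with AAV.miS1, with a median log2 fold change of -0.84, and none passed. With StufferOnly all 14 were below Empty_Capsid (median -1.01) and 4 fell, the glycine carrier SLC6A9 (-1.25, SE 0.24, adjusted p = 0.02), the lactate carrier SLC16A1 (-0.95, SE 0.20, adjusted p = 0.0216), the glutamine carrier SLC38A3 (-0.97, SE 0.23, adjusted p = 0.0284) and the cystine-glutamate exchanger SLC7A11 (-1.06, SE 0.27, adjusted p = 0.0332). None of the 14 passed with miSCA7Stuffer or with intmiS1 against Empty_Capsid, with medians of -0.90 and -0.02. Of 10 genes that anchor endfeet, HEPACAM alone fell with StufferOnly (-0.81, SE 0.15, adjusted p = 0.0194), and none passed with AAV.miS1 (median -0.27).

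Among 18 other astrocyte identity genes, 15 were below Vehicle with AAV.miS1 (median -0.75, none passed) and 17 below Empty_Capsid with StufferOnly (median -1.03), where BMPR1B and ETNPPL fell (-1.02, SE 0.28, adjusted p = 0.0452; -2.05, SE 0.58, adjusted p = 0.0477). Of 8 Bergmann glia markers 7 were below Vehicle with AAV.miS1 (median -1.10) and 5 below Empty_Capsid with StufferOnly (median -0.40), and none passed in either comparison. Among 10 astrocyte transcription factors 8 were tested in Study 1, and 6 of these were below Vehicle with AAV.miS1 (median -0.55). STAT3, a mediator of astrocyte reactivity, went the other way and alone passed there (0.70, SE 0.18, adjusted p = 0.0392). With StufferOnly 8 of the 10 were below Empty_Capsid (median -0.70). NFIA, a driver of astrocyte fate, fell with StufferOnly (-0.69, SE 0.20, adjusted p = 0.0491).

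Reactive astrocyte genes moved the other way. With AAV.miS1, 11 of 16 tested rose (median 2.27), led by CHI3L1 (2.77, SE 0.27, adjusted p = 0.00561), CP (4.73, SE 0.66, adjusted p = 0.0275) and S100A10 (2.66, SE 0.43, adjusted p = 0.0275). With StufferOnly, 12 of 18 rose (median 1.93), led by CHI3L1 (2.33, SE 0.37, adjusted p = 0.0181), SERPINA3 (4.28, SE 0.79, adjusted p = 0.0194) and TIMP1 (2.31, SE 0.47, adjusted p = 0.0207). None of the 18 passed with miSCA7Stuffer (median 0.91) or intmiS1 (median 0.59). Several of these genes, such as CD44, TIMP1 and VIM, are also made by immune and vascular cells. Without any 1 Vehicle library, or without AAV.miS1 replicate 4, at most 3 genes of the whole table passed in AAV.miS1 against Vehicle, and without any 1 Empty_Capsid library, StufferOnly replicate 2 or StufferOnly replicate 3, 0 to 53 did in StufferOnly against Empty_Capsid, so these counts rest on the full set of libraries.

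GFAP, the intermediate filament of astrocytes, was singled out after its values were seen. It had 2087, 9897, 15302, 12573, 20774 and 15562 CPM in AAV.miS1 replicates 1 to 6, against 8668, 8869, 7900 and 8193 CPM in Vehicle libraries. Replicates 2 to 6 thus lay above all Vehicle libraries and replicate 1 far below them (log2 fold change 0.60, SE 0.48, adjusted p = 0.425). With StufferOnly it had 9967, 4736 and 8455 CPM, and with miSCA7Stuffer 6160, 1975 and 4477 CPM, against 6295, 5950 and 5996 CPM in Empty_Capsid libraries. With intmiS1 it had 4763, 6015 and 6509 CPM, against 6329, 5979 and 6026 CPM in Empty_Capsid libraries scaled with them. AAV.miS1 replicate 1 and StufferOnly and miSCA7Stuffer replicates 2, lowest of their groups in GFAP, were also lowest in the median of homeostatic genes, whereas in intmiS1, Vehicle and Empty_Capsid the lowest libraries for GFAP and for that median differed.

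Among the genes outside the set whose log2 CPM most resembled its standardised mean were SLC6A11, a GABA transporter of astrocytes, TRIL, a Toll-like receptor accessory protein, and KIF3A, a kinesin motor subunit. Their Pearson correlations, taken as the lower of the values over the 10 Study 1 and the 9 featureCounts libraries, were 0.99 for each of these 3 among 12490 genes ranked. Within the set, SLC1A2 ranked highest, at position 13 of all genes. SLC4A4 followed at 46, ALDOC at 133, AQP4 at 154, GJB6 at 185, ALDH1L1 at 293 and GJA1 at 551. KCNJ10 stood at 1495, SLC1A3 at 1953 and GLUL at 2270, although each gene of the set is part of the mean it was compared with. SLC6A11 is also among the 14 transport partners above.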

How the data were processed

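Total RNA of 22 macaque DCN libraries was prepared after ribosomal RNA depletion with a directional kit, per the labels' protocols. The authors deposited unnormalised read counts for each gene, from STAR 2.6.0c (per the submitters' processing notes) for Study 1 and intmiS1 replicates 1 and 2, and from featureCounts (per the file headers) for the other 10. The featureCounts tables let a read that overlaps several genes count in each. Genome build and annotation: not given in the sources used here. For STAR tables the reverse strand column was used in Study 1 and the unstranded column for intmiS1, as the choice of the set states. Rows naming no gene, 63.6% to 72% of STAR totals, were left out, and 12 small RNA samples were not used.

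Identifiers were matched to symbols through a gene name table, 24009 of 34847 having one. AQP1, MAG and OLIG1 found no identifier, and of several identifiers the one with the larger total was used. Groups follow the treatment label, and separate animals stand behind each library. Low genes were removed with edgeR's filterByExpr (at a count of 10 and a total of 15), and the rest were scaled by TMM and tested with edgeR 4.0.16 (R 4.3.3), with a prior count of 0.125 for fold changes and 2 for log2 CPM. Standard errors are the fold change divided by the root of F. Fits used the 10 Study 1 libraries, the 9 libraries of StufferOnly, miSCA7Stuffer and Empty_Capsid, all 12 of Study 2 for intmiS1, and all 22 for differences between effects. The CPM of a library therefore shifts slightly between fits. DESeq2 1.42.0, other scalings, no filter, other columns, a covariate or subset by unmapped reads, a replicate block and the omission of each library were alternatives. Replicate numbers of the titles went together only in part in miSCA7Stuffer and StufferOnly. Libraries of the same number there deviated from their group means with r of 0.44, 0.18 and 0.25. However, miSCA7Stuffer replicate 2 reached a higher r, 0.23, with a StufferOnly library of another number. In no other pair of groups did all 3 exceed 0.1. The scripts were tested on simulated data.

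All 10 genes are named in every comparison, with counts of the other lists, up to 3 of their genes by smallest p, any at 0 in a whole group, and the 5 genes most like the set, of which 3 are named and the others are not reported here. SLC7A11 was named in addition, to complete a count. The genes and lists were chosen with earlier results of these data known. Depth limits precision most in Vehicle replicate 2.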

Additional observations from a re-analysis of the deposited data

Results flagged for a closer look

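In Vehicle libraries, replicate 4 stood apart for 2 genes. KCNJ10 had 1601 CPM there, against 1121.6 CPM in the next highest, a gap of 0.934 of the group's range. SLC4A4 had 391.2 CPM there, against 260.97 CPM in the next highest, a gap of 0.91 of the range. These were 2 of 20 combinations of gene and group examined by Dixon's criterion, which chance meets in about 1 of 20 groups. Neither gene passed in AAV.miS1 against Vehicle with or without that library.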

How the results depend on the processing

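Of the alternative values for single genes and counts, 1641 kept their direction and side of the threshold or stayed within 1.5 times, 14 lost a call, 31 gained one, 66 counts moved further and 68 turned in sign. With DESeq2 the genes passing over the whole table were 1793 for AAV.miS1 against Vehicle, 5141 for StufferOnly, 2159 for miSCA7Stuffer and 47 for intmiS1 against Empty_Capsid, 414 for miSCA7Stuffer and 4186 for intmiS1 against StufferOnly, and 17 and 389 for the differences of AAV.miS1 from StufferOnly and intmiS1. Of the 10 genes it called 5 lower with StufferOnly, as 1812 of all genes, and 4 lower with miSCA7Stuffer, as 732 of all genes. It called 1 of the 10 higher in miSCA7Stuffer against StufferOnly, as 260 of all genes. In intmiS1 against StufferOnly it called 3 of the 10 higher, where the count of all genes on that side is not given here. For AAV.miS1 against Vehicle 148 genes passed with the unmapped share as a covariate, where SLC1A3 was at 0.002, and 123 in libraries with over 15% unmapped reads, where SLC1A3 was at 0.11 and GJA1 at 0.12. Fitting only the groups compared gave 6314 genes (3786 higher, 2528 lower) and 8 of the 10 for StufferOnly, and 0 for miSCA7Stuffer. For miSCA7Stuffer against Empty_Capsid 2 genes passed with upper quartile factors and 6 with total counts, and against StufferOnly 1 without a filter. The AAV.miS1 and intmiS1 difference had 1 gene with relative log expression factors and 1 with the unstranded column.

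With the replicate block SLC1A2 passed in intmiS1 against StufferOnly (1.91, adjusted p = 0.0463), and 4 of the 10 genes passed as lower with StufferOnly, though in neither comparison do the numbers pair the libraries (r over 0.1 in 5 of 18 pairs, 3 of them between miSCA7Stuffer and StufferOnly). The count of all genes passing as lower with the block is not given here, so the 4 of 10 has no share beside it. No call changed with the block in miSCA7Stuffer against StufferOnly, where signs turned for SLC1A2 (-0.068), ALDH1L1 (-0.017) and ALDOC (-0.32), and in intmiS1 against Empty_Capsid for ALDH1L1 (-0.045). With the featureCounts library alone, intmiS1 against Empty_Capsid turned for SLC1A2 (0.078) and ALDH1L1 (-0.37), and against StufferOnly 0 genes passed, 0 of the 10, with GLUL at 0.49. With the reverse column GLUL turned to 0.16 and 0.70, and to -0.59 in AAV.miS1 minus intmiS1, an alternative chosen after seeing the data. SLC4A4 in intmiS1 against Empty_Capsid lay at 0.016 with DESeq2, 0.019 with relative log expression factors, 0.086 with upper quartile factors, 0.091 with total counts and 0.042 with the reverse column. The AAV.miS1 minus StufferOnly difference turned with total counts for GJA1 (-0.14), ALDOC (-0.10) and GLUL (-0.015), and with the unstranded column for GJA1 (-0.0033). The AAV.miS1 minus intmiS1 difference turned for AQP4 with upper quartile factors (-0.022) and total counts (-0.049). The cause of these changes was not tested.

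Leaving out 1 library at a time, genes passing ranged over 0 to 2300 for AAV.miS1 against Vehicle, 0 to 2593 for StufferOnly against Empty_Capsid (0 to 2 of the 10 lower), 0 to 6983 for miSCA7Stuffer (0 to 9 lower), 0 to 1852 for intmiS1 (0 to 1 lower), 0 to 343 for miSCA7Stuffer against StufferOnly (0 to 1 higher), 132 to 3833 for intmiS1 against StufferOnly (1 to 2 higher, 0 to 1 lower) and 0 to 872 for AAV.miS1 minus intmiS1. SLC1A3 ranged from -0.14 to 0.088 for AAV.miS1. In miSCA7Stuffer against StufferOnly the ranges were -1.03 to 0.72 for SLC1A2, -0.15 to 0.34 for SLC1A3, -2.54 to 0.79 for GJB6, -0.55 to 0.43 for ALDH1L1, -1.62 to 0.72 for ALDOC, -0.014 to 0.23 for GLUL and -0.014 to 0.54 for SLC4A4. For intmiS1 they were -0.25 to 0.19 for ALDH1L1 and -0.15 to 0.084 for SLC4A4 against Empty_Capsid, and -0.038 to 0.57 for AQP4 and -0.17 to 0.33 for SLC1A3 against StufferOnly. In AAV.miS1 minus StufferOnly they were -0.33 to 0.39 for GJA1, -0.059 to 1.23 for GJB6, -0.046 to 0.58 for ALDH1L1, -0.26 to 0.62 for ALDOC and -0.038 to 0.36 for GLUL, and in AAV.miS1 minus intmiS1 -0.22 to 0.30 for AQP4. DESeq2 moved the median of all genes to -0.15 for AAV.miS1 against Vehicle and to -0.33 for AAV.miS1 minus intmiS1. Depth limits the values of Vehicle replicate 2.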
